A study of Mus musculus with 8 samples.

Results

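Polycomb repressive complex 2 (PRC2) was examined through the transcripts of its subunits in newborn mouse epidermis lacking Eed. The core subunits were Eed, Ezh1, Ezh2, Suz12, Rbbp4 and Rbbp7, and the accessory subunits were Jarid2, Mtf2, Phf1 and Phf19. Members were found by matching the RefSeq accession given for each non-control probe to a gene symbol. All 10 genes were represented, by 16 of the 55681 probes, and they made up 10 of the 36799 genes and other targets on the array. Eed, Ezh2, Suz12, Jarid2 and Phf19 had 1 probe each, and the other 5 genes had several.

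Epidermis was collected from the backs of C57BL/6 mice at P0, the day of birth, 4 of them EED cKO and 4 control, and none of the animals was treated. EED cKO mice were K14-Cre; EED flox/flox, so that Cre recombinase under the keratin 14 promoter removed Eed in keratinocytes and their descendants. The control mice were labelled CTL, and their alleles were not given for the arrays, while the study's quantitative PCR of EED cKO animals used Cre-negative siblings as the comparison. Each RNA was hybridised with Universal Mouse Reference RNA, a commercial pool, to its own array of an Agilent 8X60K slide, with the sample in Cy3 for replicates 1 and 3 and in Cy5 for replicates 2 and 4 of both genotypes. Values are log2 ratios of epidermis over reference, and the change of a gene is the EED cKO mean minus the control mean on that scale. Because epidermis was peeled from dermis as a sheet, melanocytes, immune cells and other cells in which K14-Cre is not active could contribute intact Eed RNA, and in such bulk RNA fewer cells of a type and less RNA per cell cannot be told apart.

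PRC2 places methyl groups on histone H3 at lysine 27, a mark of silenced genes. Ezh2 or its paralogue Ezh1 carries the catalytic SET domain, Eed binds the finished mark and is required for enzyme activity, and Suz12 is the scaffold on which the complex is assembled. Rbbp4 and Rbbp7 are closely related histone-binding proteins that also serve in the NuRD, Sin3, NURF and chromatin assembly complexes. Mtf2, Phf1 and Phf19 are the Polycomb-like proteins of one form of the complex, and Jarid2 belongs to the other. In embryonic epidermis PRC2 is known for holding back differentiation genes and the Merkel cell programme, and in many tissues Ezh2 is abundant in dividing cells while Ezh1 is found in resting ones.

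The sequences just upstream of the start sites of the 4 members that passed the test are shown. They were chosen by that outcome, Eed among them is the deleted gene, and no regulation through these sequences was measured. Each is the 250 bases before the RefSeq start site on GRCm38.p6, in the direction of transcription, with matches to the E2F letters TTTGGCGC, TTTCGCGC, TTTCCCGC or TTTGCCGC on either strand in capitals.
Eed, chr7:89980977-89981226, minus strand: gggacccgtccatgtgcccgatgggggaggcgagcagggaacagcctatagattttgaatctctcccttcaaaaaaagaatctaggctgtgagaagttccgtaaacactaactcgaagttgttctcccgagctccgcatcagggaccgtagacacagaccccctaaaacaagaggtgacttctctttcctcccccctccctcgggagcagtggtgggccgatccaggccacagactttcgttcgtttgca
Ezh1, chr11:101226464-101226713, minus strand: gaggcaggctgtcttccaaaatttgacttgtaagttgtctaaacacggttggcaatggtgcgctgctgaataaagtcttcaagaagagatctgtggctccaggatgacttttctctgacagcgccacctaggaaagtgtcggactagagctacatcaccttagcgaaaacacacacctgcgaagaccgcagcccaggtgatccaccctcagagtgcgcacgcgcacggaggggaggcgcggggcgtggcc
Suz12, chr11:79992856-79993105, plus strand: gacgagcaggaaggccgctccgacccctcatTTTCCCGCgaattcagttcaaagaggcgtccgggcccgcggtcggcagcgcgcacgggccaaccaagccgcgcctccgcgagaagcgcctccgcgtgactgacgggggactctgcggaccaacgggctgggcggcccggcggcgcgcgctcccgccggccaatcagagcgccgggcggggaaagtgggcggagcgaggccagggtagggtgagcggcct
Rbbp7, chrX:162760122-162760371, plus strand: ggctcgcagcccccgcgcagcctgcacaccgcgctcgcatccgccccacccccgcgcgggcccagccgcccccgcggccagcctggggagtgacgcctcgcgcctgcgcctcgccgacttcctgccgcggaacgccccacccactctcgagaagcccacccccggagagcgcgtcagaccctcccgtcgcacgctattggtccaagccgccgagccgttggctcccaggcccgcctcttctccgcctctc
The Suz12 sequence held TTTCCCGC at -219 to -212 from the start site, and the other 3 sequences held none of the E2F letters. Among all 10 members, Suz12 and Phf19 held such a match, compared with 1.86% of 32851 RefSeq promoters of the same length. The letters CCAAT, on either strand, were present for 6 of 10 members and in 33.9% of all promoters. The GC box letters GGGCGGG, on either strand, were present for 5 of 10 members and in 23.4% of all promoters. A member with several start sites counted if any of its sequences matched, while the percentages count each promoter by itself. The sequences of Suz12 and Rbbp7 held 37 and 34 CpG dinucleotides, those of Eed and Ezh1 held 12 and 14, and the median over all promoters was 6. A match describes these letters only.

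The sample channel was well above background on 51.5% to 65.5% of spots per array, and no spot was saturated. The 8 arrays shared 1 slide whose rows coincided with genotype, and the row and the genotype cannot be told apart. In the reference channel alone, which held the same RNA on every array, the largest difference of a member between genotypes was -0.09 log2 units, for Eed, and the smallest adjusted p of a member was 0.666 (limma). In that channel 117 genes had an adjusted p below 0.05. The Y-linked genes Ddx3y, Eif2s3y, Kdm5d and Uty had mean log2 ratios of 1.19 and 1.02 in control replicates 2 and 3 and between -1.51 and -1.31 on the other 6 arrays, while Xist was lowest in the same pair, at -2.49 and -1.85. The sex of the mice was not given. The arrays with high Y-linked ratios were all control arrays, so this pattern was not balanced between the genotypes.

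Eed, the deleted subunit, fell to 36.4% of control (95% confidence interval 31.6% to 41.9%). Its log2 ratios were -1.74, -2.04, -1.78 and -1.66 in EED cKO replicates 1 to 4 and -0.18, -0.46, -0.31 and -0.43 in control replicates 1 to 4. All EED cKO arrays lay below all control arrays. The difference was -1.46 ± 0.09 (SE, n = 4 per genotype, limma adjusted p = 2.13e-05), and 0.0994% of the 23139 genes tested were lower by 2-fold or more at an adjusted p below 0.05. It was -1.51 among the arrays with the sample in Cy3 and -1.41 among those with the sample in Cy5. An exact permutation of the 8 arrays gave p = 0.0286, the smallest that 4 against 4 arrays allow. Unnormalised Eed spot signals ran from 546 to 828 in EED cKO and from 1841 to 3361 in control, against local backgrounds of 20 to 26, so that Eed RNA remained well above background on every EED cKO array. The probe sequence and the exons between the loxP sites were not given in the sources used here, and whether the single Eed probe lies in the deleted part is therefore not known.

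Of the 9 subunits that were not deleted, 3 fell at an adjusted p below 0.05 and none rose, while 9.93% of all genes tested were called lower, 11.8% higher and 21.7% in either direction. The 3 were Ezh1, Suz12 and Rbbp7, all core subunits, and none of the 4 accessory subunits passed. At an unadjusted p below 0.05 in the same limma fit, 6 of the 9 were lower and 0 higher. Ezh2, Mtf2 and Phf19 joined the 3, so that in either direction 6 of the 9 passed this limit, as did 8293 of the 23139 genes tested. The lower genes among the 8293 were not counted separately. Without EED cKO replicate 4 or control replicate 2 none of the 9 passed. No subunit other than Eed changed by 2-fold, as 1.2% of all genes did. The fitted change was below 0 for 8 of the 9, compared with 46.1% of all genes, and its median over the 9 was -0.23, compared with 0.02 over all genes. The EED cKO array was the lower one in all 4 pairs of arrays sharing a replicate number for 6 of the 9, compared with 20.2% of all genes. The groups did not overlap for Suz12 and Rbbp7, compared with 7.51% of all genes whose EED cKO arrays all lay below the control arrays.

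**Figure D1:**
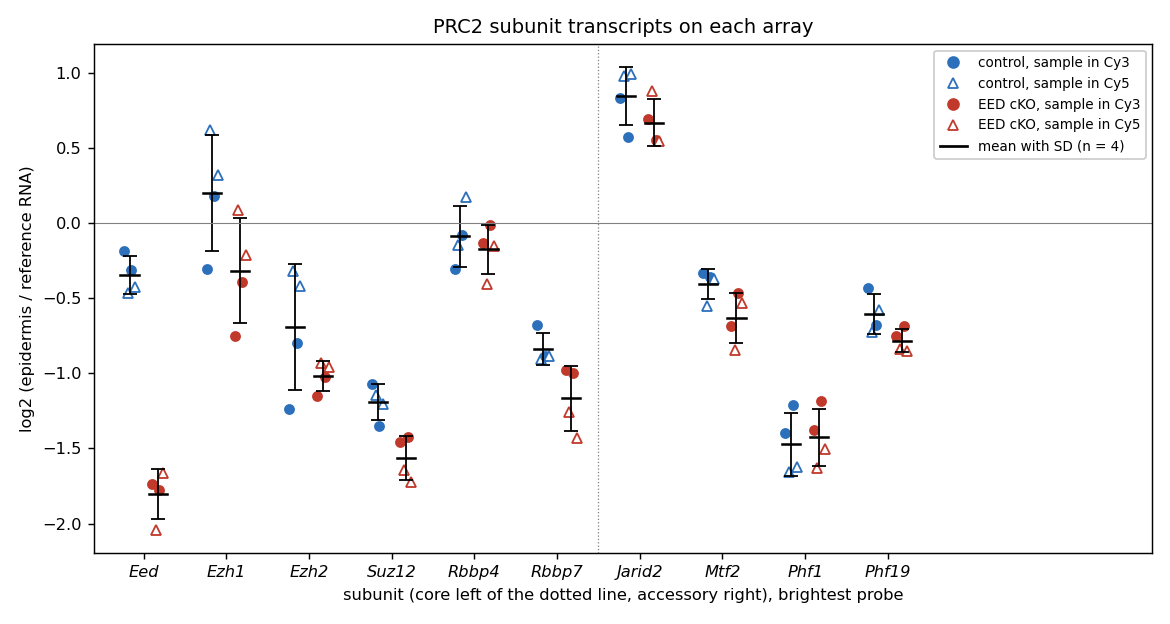
Log2 ratio of epidermis over reference RNA (vertical axis) for the brightest probe of each PRC2 subunit on each of the 8 arrays. Blue marks are control and red marks EED cKO, circles have the sample in Cy3 and triangles in Cy5, and black bars are means with SD (n = 4). Eed, Suz12 and Rbbp7 have no overlap between genotypes, and the Ezh1 values of both dyes are offset from each other within each genotype.

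Ezh1, one of the alternative methyltransferases, had the largest fitted fall after Eed, to 69.7% of control (56.7% to 85.8%). Its log2 ratios were -0.75, 0.09, -0.39 and -0.21 in EED cKO replicates 1 to 4 and -0.31, 0.62, 0.18 and 0.32 in control replicates 1 to 4. The groups overlapped, since the Cy5 arrays read higher than the Cy3 arrays in both genotypes, but within each pair of the same number the EED cKO array was lower by a similar amount. These differences were -0.45, -0.53, -0.57 and -0.53, and the change was -0.51 among Cy3 arrays and -0.53 among Cy5 arrays. With the dye in the model it was -0.52 ± 0.13 (SE, n = 4 per genotype, limma adjusted p = 0.0228), and with the replicate number as a block the adjusted p was 0.00196. Without a dye term the adjusted p was 0.150, and the exact permutation test, which ignores dye, gave p = 0.114.

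The other Ezh1 probes were lower by less. A_55_P2155942, well above background on all 8 arrays, changed by -0.26 ± 0.08 (SE, n = 4, limma adjusted p = 0.0601) and was lower in all 4 pairs, with differences of -0.33 to -0.14. A_55_P2017086, which did not pass the filter on dim probes, differed by -0.14. With the mean Y-linked log2 ratio added to the model the Ezh1 change was -0.34 (adjusted p = 0.114, limma), and it also lost the call without EED cKO replicate 1 (-0.45, 0.0656), EED cKO replicate 4 (-0.46, 0.0786) or control replicate 2 (-0.46, 0.0783).

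Ezh2, the methyltransferase of dividing cells, was not called. Its log2 ratios were -1.15, -0.93, -1.02 and -0.96 in EED cKO replicates 1 to 4 and -1.24, -0.32, -0.79 and -0.42 in control replicates 1 to 4. The EED cKO arrays lay close together, with an SD of 0.10, and the control arrays were spread, with an SD of 0.42. Control replicate 1 lay below every EED cKO array, and the other 3 control arrays lay above every one. The difference was -0.32 ± 0.13 (SE, n = 4, limma adjusted p = 0.0970), with a 95% confidence interval of -0.61 to -0.04 before adjustment. It was -0.07 among Cy3 arrays, which include control replicate 1, and -0.58 among Cy5 arrays. Without control replicate 1 it was -0.46 and passed (adjusted p = 0.00872, limma), and in the other 23 alternatives it did not pass.

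Suz12, the scaffold of the complex, fell to 77.4% of control (67.4% to 89.0%). Its log2 ratios were -1.46, -1.64, -1.42 and -1.72 in EED cKO replicates 1 to 4 and -1.07, -1.14, -1.35 and -1.20 in control replicates 1 to 4. Every EED cKO array was below every control array, and the nearest pair was replicate 3 of both genotypes, 0.0706 apart. The change was -0.37 ± 0.09 (SE, n = 4, limma adjusted p = 0.0181), and the exact permutation p was 0.0286. It was -0.23 among Cy3 arrays and -0.51 among Cy5 arrays. The call was lost without EED cKO replicate 4 (-0.33, adjusted p = 0.0605, limma) and without control replicate 2 (-0.33, 0.0660).

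Rbbp4 and Rbbp7, the paralogous histone-binding subunits, differed in their calls. Rbbp7 log2 ratios were -0.979, -1.26, -0.996 and -1.43 in EED cKO replicates 1 to 4 and -0.68, -0.91, -0.89 and -0.88 in control replicates 1 to 4. All EED cKO arrays were lower than all control arrays, and EED cKO replicate 4 was the lowest of the 8. Rbbp7 fell by 0.33 on the log2 scale, to 79.6% of control (SE 0.08, n = 4, limma adjusted p = 0.0229, exact permutation p = 0.0286). A_55_P2080542, its other probe, changed by -0.07 ± 0.07 (SE, limma adjusted p = 0.560), with the genotypes overlapping, and the median over both probes gave -0.20 (0.0971). The Rbbp7 call was lost in 10 of 24 alternatives, among them median centring of the arrays (-0.43, adjusted p = 0.0942) and the log ratios of the scanner software (-0.33, 0.0552). It was also lost without EED cKO replicate 4 (-0.27, 0.0671), control replicate 2 (-0.31, 0.0760) or control replicate 4 (-0.30, 0.0609, all limma).

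Rbbp4 log2 ratios ran from -0.40 to -0.01 in EED cKO and from -0.31 to 0.18 in control. The genotypes overlapped throughout, and the EED cKO array was the lower one in 2 of 4 pairs. The difference was -0.09 ± 0.12 (SE, n = 4, limma adjusted p = 0.651), with a 95% interval of -0.35 to 0.18, and the other Rbbp4 probe, A_52_P424767, differed by 0.00.

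Among the accessory subunits, Jarid2, which helps bring PRC2 to chromatin, had log2 ratios of 0.55 to 0.88 in EED cKO and 0.58 to 0.99 in control. Its difference was -0.18 ± 0.10 (SE, n = 4, limma adjusted p = 0.233), and it did not pass in any of the 24 alternatives. Mtf2, a Polycomb-like protein that binds unmethylated CpG-rich DNA, had log2 ratios of -0.69, -0.84, -0.46 and -0.53 in EED cKO replicates 1 to 4 and -0.33, -0.55, -0.36 and -0.37 in control replicates 1 to 4. Only control replicate 2 reached down into the EED cKO range, and each EED cKO array was below the control array of its number. The Mtf2 difference was -0.23 ± 0.09 (SE, n = 4, limma adjusted p = 0.101), -0.23 within either dye, and it passed with median centring (-0.41, 0.0205). A_55_P2022624, the second Mtf2 probe, well above background on 3 of 4 arrays of each genotype, differed by 0.04.

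Phf19, also Polycomb-like, differed by -0.18 ± 0.08 (SE, n = 4, limma adjusted p = 0.127), with log2 ratios of -0.85 to -0.69 in EED cKO and -0.73 to -0.43 in control. Its spot signals were 68.0 to 101 in EED cKO and 88.5 to 133 in control over backgrounds of 21 to 26, and with the scanner software's own log ratios the difference was -0.45 (adjusted p = 0.0225, limma). Phf1, the remaining Polycomb-like gene, ran from -1.63 to -1.19 in EED cKO and from -1.66 to -1.21 in control. Its EED cKO array was higher in all 4 pairs, but by only 0.0201 to 0.116, and the difference was 0.05 ± 0.08 (SE, n = 4, limma adjusted p = 0.709, 95% interval -0.13 to 0.22). The sign of the Phf1 difference was negative with median centring (-0.095) and with the log ratios of the scanner software (-0.047).

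**Figure D2:**
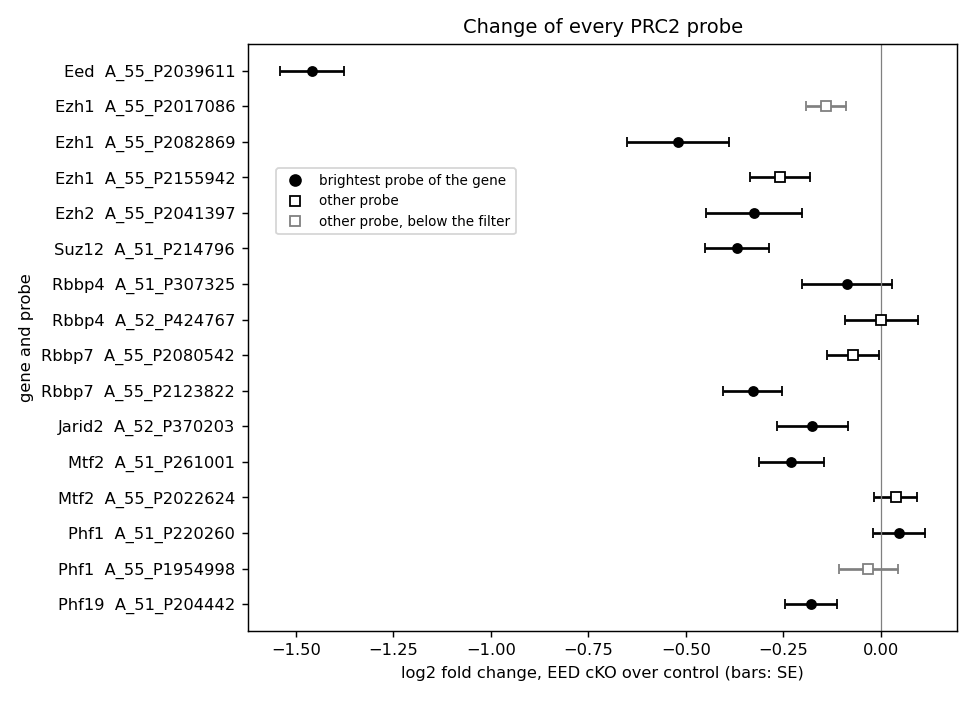
Log2 fold change of EED cKO over control (horizontal axis) for each of the 16 probes, with SE as bars (4 arrays per genotype). The values come from a fit of every probe on its own without the filter on dim probes. Filled circles are the probe that stands for the gene, open squares the other probes, and grey squares the 2 probes that did not pass the filter. Eed lies apart at -1.46, and for Ezh1, Rbbp4, Rbbp7 and Mtf2 the brightest probe lies further below 0 than the other probes of the gene.

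The change of Eed was set against that of the core subunits that remained intact. On each array the mean log2 ratio of Ezh1, Ezh2 and Suz12 was subtracted from that of Eed, and only the change of this difference between genotypes has a meaning, since ratios of different probes are not levels. It was -0.62, -1.21, -0.83 and -0.70 in EED cKO replicates 1 to 4 and 0.69, -0.18, 0.35 and 0.01 in control replicates 1 to 4, with no overlap. Between genotypes the difference shifted by -1.05 ± 0.23 log2 units (SE, n = 4, exact permutation p = 0.0286, two-sided, and 0.0857 after adjustment over the 3 comparisons of this kind). The adjusted value did not pass, and 0.0286 is the smallest p this design can give before adjustment. Without EED cKO replicate 2 the difference was -0.93 (exact p = 0.0571), and paired by replicate number it had p = 0.125, the smallest that sign changes of 4 pairs allow.

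For neither pair of paralogues did the difference in change pass the exact permutation test over arrays. Ezh2 minus Ezh1 shifted by 0.20 ± 0.14 (SE, n = 4, exact permutation p = 0.257, adjusted 0.257), with values of -1.02 to -0.40 in EED cKO and -0.97 to -0.74 in control. Rbbp7 minus Rbbp4 shifted by -0.24 ± 0.17 (SE, n = 4, exact permutation p = 0.229, adjusted 0.257), with values of -1.28 to -0.85 in EED cKO and -1.06 to -0.37 in control. Although Rbbp7 was called and Rbbp4 was not, their changes were therefore not shown to differ. Paired by replicate number, Rbbp7 minus Rbbp4 was lower in EED cKO in all 4 pairs, with differences of -0.48, -0.090, -0.18 and -0.22, with an exact p of 0.125, again the smallest that 4 pairs allow, and Ezh2 minus Ezh1 had an exact p of 0.5. Without control replicate 4 the Rbbp7 and Rbbp4 contrast was -0.35 (exact p = 0.0286).

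**Figure D3:**
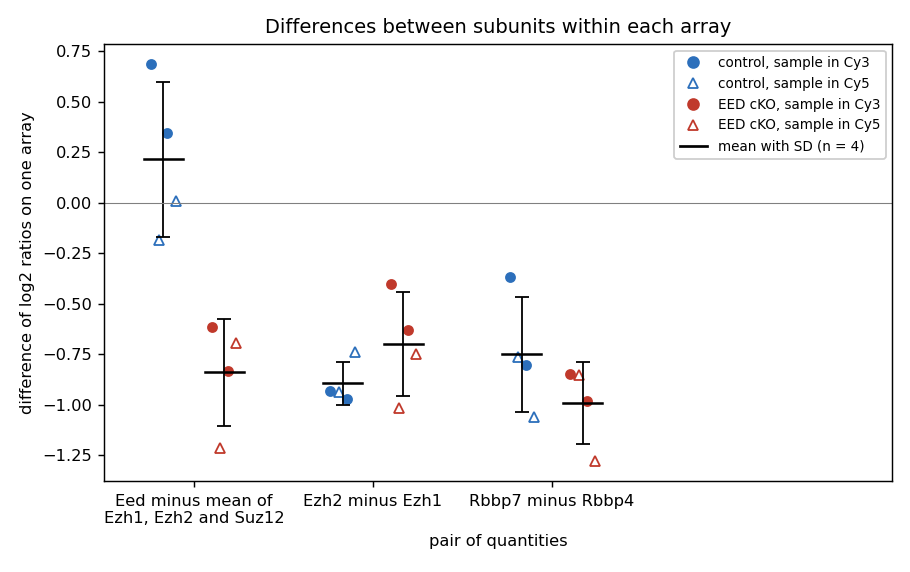
Difference between log2 ratios of subunits within one array (vertical axis), for control (blue) and EED cKO (red), with circles for samples in Cy3, triangles for samples in Cy5 and means with SD (n = 4). Eed minus the mean of Ezh1, Ezh2 and Suz12 separates the genotypes, and the values of both paralogue pairs overlap.

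Across the 8 arrays, after removal of dye means, the 45 pairs of members had Pearson correlations from -0.84, for Jarid2 and Phf1, to 0.98, for Suz12 and Rbbp7, with a median of 0.52. The genotype difference was left in, so these values partly restate it. Of the 45 pairs 6 were below 0, and 5 of those involved Phf1. Of 14934 tested genes with a symbol, the pattern of Eed was most like that of Acat1, Slc43a1 and Tor3a (0.995, 0.993 and 0.991), that of Ezh1 most like Traf4, Sltm and Ubn2 (0.994, 0.993 and 0.992), and that of Ezh2 most like Vezf1, Fbf1 and Impact (0.991, 0.990 and 0.986). These points share arrays and a reference channel and are descriptions without a test.

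Other cofactors of the complex moved in both directions. Of 5 genes, 4 were tested, 1 rose and 2 fell, with a median change of -0.09. Over all genes tested, 11.8% were called higher and 9.93% lower. Epop, which links PRC2 to Elongin, had log2 ratios of 1.15, 1.06, 1.05 and 0.72 in EED cKO replicates 1 to 4 and 0.44, 0.12, 0.14 and 0.04 in control replicates 1 to 4. The lowest EED cKO array was above the highest control array, and Epop rose by 0.81 ± 0.10 (SE, n = 4, limma adjusted p = 0.000956). Lcorl, part of the PALI family of cofactors, fell by 0.40 (adjusted p = 0.0291), while its 3 other probes changed by 0.00 to 0.06. Aebp2, a partner of Jarid2 in the complex, fell by 0.27 (adjusted p = 0.0307), with a change of -0.14 (adjusted p = 0.201, limma) for its second probe. Of the 4 tested, 1 passed without EED cKO replicate 1, 2 or 4 or control replicate 2 or 4.

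Enzymes that remove the PRC2 mark or acetylate the same lysine were represented by 5 genes. Of the 4 tested, 2 fell and none rose, with a median of -0.22, while 9.93% of all genes were called lower and 11.8% higher. Kdm6b, an H3K27 demethylase, fell by 0.31 (limma adjusted p = 0.020), and Ep300, an acetyltransferase, fell by 0.28 (adjusted p = 0.0312). Kdm6a, the X-linked demethylase, differed by -0.17 (adjusted p = 0.326). Of these genes 1 passed without EED cKO replicate 1, 2 or 3 or control replicate 1, and 0 without EED cKO replicate 4 or control replicate 2.

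The COMPASS complexes, trithorax group methyltransferases that counteract Polycomb silencing, had 14 tested subunits. By their brightest probes 7 fell and none rose, with a median of -0.25, beside 9.93% lower and 11.8% higher over all genes. The largest fall was that of Ncoa6, a coactivator in the Kmt2c and Kmt2d complexes, at -0.73 ± 0.11 (SE, n = 4, limma adjusted p = 0.00277). Men1, a tumour suppressor in the Kmt2a and Kmt2b complexes, had discordant probes, with -0.26 for the brightest (adjusted p = 0.181) and a rise of 0.31 for the other, A_55_P2143159 (adjusted p = 0.0176 in the fit with every probe on its own). With the mean Y-linked log2 ratio added to the model 3 of the 14 passed, and 4 did without EED cKO replicate 4, control replicate 2 or control replicate 4.

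Polycomb repressive complex 1 (PRC1), which reads the PRC2 mark through its Cbx proteins and ubiquitinates histone H2A, was mixed. Of 22 tested subunits, 4 rose, 8 fell and 10 did not pass, with a median of -0.15. Among all genes tested, 11.8% were called higher and 9.93% lower. The 4 that rose were Bmi1, Pcgf5, Pcgf1 and Cbx8. Bmi1, the ring finger partner of many canonical PRC1 complexes, had log2 ratios of 0.20, 0.14, 0.23 and 0.37 in EED cKO replicates 1 to 4 and -0.68, -0.96, -1.12 and -0.76 in control replicates 1 to 4. The genotypes were far apart, and Bmi1 rose by 1.11 ± 0.11 (SE, n = 4, limma adjusted p = 0.000283), with 1.16 for its second probe. Pcgf5, its relative in a non-canonical complex, rose by 0.71 (adjusted p = 0.000429). Cbx6, one of the chromodomain readers, fell by 0.78 (adjusted p = 0.00665), and its other probes changed by -0.32 and 0.00.

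The other complexes that contain Rbbp4 or Rbbp7 had 24 tested genes, of which 9 fell and 2 rose, with a median of -0.14. The shares over all genes were 9.93% lower and 11.8% higher. Bptf, the large subunit of the NURF remodelling complex, fell by 0.79 ± 0.11 (SE, n = 4, limma adjusted p = 0.00175). The 2 that rose were Lin9 (0.28, adjusted p = 0.0375) and Lin37 (0.27, adjusted p = 0.0253), both subunits of the MuvB core that controls cell cycle genes. Without EED cKO replicate 4 or control replicate 2, 7 of the 24 passed in place of 11.

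**Figure D4:**
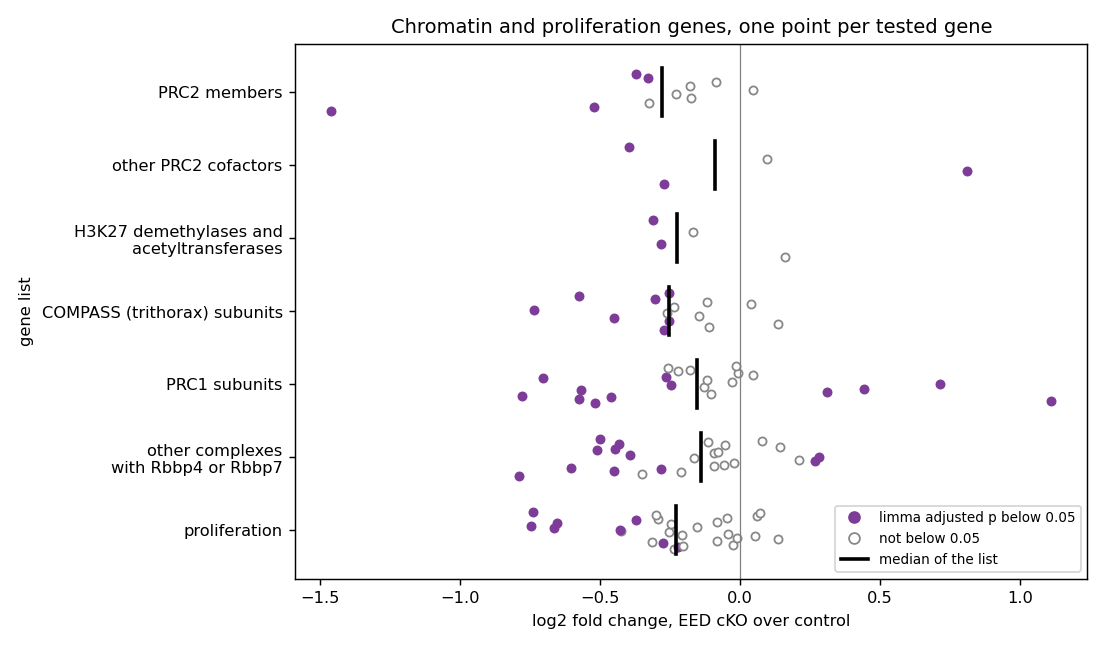
Log2 fold change of EED cKO over control (horizontal axis) for each tested gene of 7 lists, with filled points for a limma adjusted p below 0.05 and a black bar at the median of each list. Medians of all 7 lists lie below 0, and PRC1 subunits reach from Cbx6 at -0.78 to Bmi1 at 1.11.

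Markers of proliferation, with which Ezh2 is often expressed, were lower or not called. Of 28 tested, 8 fell and none rose, with a median of -0.23, compared with 9.93% of all genes lower and 11.8% higher. The largest fall was that of Mcm6, a subunit of the replicative helicase, at -0.74 ± 0.12 (SE, n = 4, limma adjusted p = 0.00361), and Mki67, a marker of cycling cells chosen after its values were seen, fell by 0.65 (adjusted p = 0.00854). Mcm6 changed by -0.43 among Cy3 arrays and -1.06 among Cy5 arrays, and Mki67 by -0.37 and -0.94. The mean log2 ratio of the 28 ran from -1.38 to -1.21 on the EED cKO arrays and from -1.23 to -0.90 on the control arrays. Of the 28, 4 passed without EED cKO replicate 2 or 4 or control replicate 2 or 4, and 14 passed without control replicate 3. The part of proliferation in the values of the PRC2 subunits was not tested.

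The keratinocyte markers measured, 14 in all, were well above background on all 8 arrays, with a mean log2 ratio of 3.05 to 3.53 in EED cKO and 2.99 to 3.64 in control. Tgm1, a cross-linking enzyme of the outer layers, rose by 0.41 (limma adjusted p = 0.0457). Another 3 fell, the largest being the basal integrin Itga6 at -0.74 (adjusted p = 0.00320). For these and the cell type lists that follow, the shares over all genes were 11.8% higher and 9.93% lower. Trp63 had discordant probes. Its brightest changed by 0.04 (limma adjusted p = 0.756), and its other probe, A_51_P216550, by -0.59 (limma adjusted p = 0.00338). All 6 Merkel cell markers rose, led by Krt20 at 1.12 (adjusted p = 6.87e-05). List means were -0.95 to -0.82 in EED cKO and -1.67 to -1.53 in control. Atoh1, Isl1 and Sox2 passed the filter only through EED cKO, being well above background on 2, 2 and 0 control arrays. Of 7 tested immune markers 3 rose, led by H2-Ab1 at 1.55 (adjusted p = 0.00936). H2-Ab1 log2 ratios ran from 2.53 to 2.96 in EED cKO and from 0.32 to 2.45 in control. Its change was 2.22 among Cy3 arrays and 0.89 among Cy5 arrays. The immune list ran from -0.65 to -0.34 in EED cKO and from -0.95 to -0.46 in control. Of 3 tested endothelial markers 2 rose, led by Pecam1 at 0.89 (adjusted p = 0.00385), with 0.34 to 0.47 in EED cKO and 0.10 to 0.19 in control, and the defining genes Cdh5 and Tek were not well above background on any array. Of 8 tested dermal fibroblast markers 2 rose, led by Lum at 0.50 (adjusted p = 0.0121). The other, Fbn1, passed the filter only through EED cKO, being well above background on 3 EED cKO and 2 control arrays. The fibroblast list ran from -3.01 to -2.84 in EED cKO and from -3.13 to -2.88 in control, and Dpt was above background on no array. None of 7 melanocyte, 3 erythroid or 3 muscle markers passed, and erythroid means were 1.21 to 2.23 in EED cKO and 0.53 to 2.04 in control. What part these cells had in the levels of the PRC2 subunits was not tested.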

How the data were processed

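RNA of 4 EED cKO and 4 control epidermis samples was measured on 2-colour Agilent arrays. The authors deposited, for each array, Feature Extraction output (version 12.0.1.1 per the labels) with unnormalised spot and background intensity and the log10 of Cy5 divided by Cy3. The log2 table the authors deposited held, for 55249 probes with 1 spot, the sample divided by reference of the processed signals to within 7.33e-06. No genome build enters the values. Genotype, replicate number and dye came from the labels, which call the samples biological replicates.

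Median spot signals were corrected by normexp (offset 50) and normalised by loess within each array, with control and outlier spots at weight 0. Arrays were turned to sample over reference, spots of a probe averaged, and the brightest probe taken for each gene. Of 36799 targets, 23139 passed the filter, a sample signal well above background on 3 or more of the 4 arrays in either genotype. The fit had 19 missing values, none in a member. Genotypes were compared with limma 3.58.1 (R 4.3.3), genotype plus dye, with Benjamini-Hochberg adjustment over all 23139. Every adjusted p without another name is of this limma fit, except that those of further probes of a gene come from a limma fit with every probe on its own, adjusted over 30727 probes. The SEs of further probes come from such a fit without the filter on dim probes. Genes with an adjusted p below 0.05 were called whatever their fold, which gave 2727 higher and 2297 lower genes. The split was 1014 and 1540 with median centring of arrays. Exact permutation tests over the 8 arrays were run on single values. In simulations with 200 of 23139 genes changed 3-fold, 197 and 196 were recovered, and with 1.5-fold changes 139 and 136. The number of arrays limits the precision.

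Same-numbered samples shared a dye and deviated together (correlations 0.49, 0.68, 0.33 and 0.36), but after removal of dye the correlations were -0.14, 0.23, -0.13 and 0.05. The fit in the text has dye and no pair term, the permutation tests are unpaired, and the replicate block is an alternative.

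RefSeq accessions matched a symbol for 28026 of 29796 probes. Names and promoters are from RefSeq on GRCm38.p6. The array was annotated on another build, so coordinates are given only for the printed promoter sequences, on GRCm38.p6. E2F, CCAAT and GC box letters were searched.

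The members and lists were chosen with earlier results of these data known. All members are named, as are list genes that passed at 2-fold and otherwise the largest rise and fall of a list. Aebp2, Kdm6a, Ep300, Pcgf1, Pcgf5, Cbx8, Lin37, Mki67, Men1 and Trp63 were named after their values were seen. Kmt2a, Flg, Trdc and Hbb-bs had no matched probe.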

Additional observations from a re-analysis of the deposited data

Results flagged for a closer look

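In 38 groups of 4 arrays, from the 16 probes and the 3 comparisons between subunits in both genotypes, 2 held an array far from the other 3, and chance gives about 1 in 20. For Rbbp7 probe A_55_P2123822, control replicate 1 was at -0.68 and the other control arrays were between -0.91 and -0.88. For Ezh1 probe A_55_P2017086, which did not pass the filter on dim probes, EED cKO replicate 3 was at -0.20 and the other EED cKO arrays between -0.11 and -0.09.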

How the results depend on the processing

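Eed kept its call in all 24 alternatives, at -1.72 to -1.39. The number of other PRC2 subunits that passed was 3. It was 2 with the Y-linked covariate, with the median over probes or with the sample channel alone, and 1 without a dye term. It was 0 with the methods' t-test after Benjamini-Hochberg adjustment and 0 with a 2-fold limit. With each array left out in turn it was 0 to 4, and 0 without EED cKO replicate 4 or control replicate 2. With the replicate number as a block the same 3 members passed and 5983 genes were called, and no call of a member changed, while Eed against the other core subunits remained at -1.05 with an exact p of 0.125. Over all genes 5024 passed, and 2554 did with median centring, 2358 without a dye term, 913 with the methods' t-test, 2804 with the Y-linked covariate, 278 with the 2-fold limit, and 2722 to 5064 with an array left out, lowest without control replicate 2. Of the 6 lists of chromatin and proliferation genes 43 genes passed, and 26 did with median centring, 22 without a dye term, 9 with the methods' t-test, 27 with the Y-linked covariate, and 25 to 47 with an array left out. Phf1 changed sign with median centring (-0.095) and with the software's log ratios or the deposited table (-0.047 in both). Rbbp4 ran from -0.17 to 0.019 with an array left out and was above 0 without EED cKO replicate 2 or control replicate 4. With an array left out, Eed against the other core subunits ran from -1.19 to -0.90, Ezh2 against Ezh1 from 0.10 to 0.30, and Rbbp7 against Rbbp4 from -0.35 to -0.12. Aquantile leaves ratios as they are, so it changed nothing. The cause of these changes was not tested. Phf19 sample signals were 68.0 to 133 over backgrounds of 21 to 26.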
